A study of Homo sapiens with 3 samples.

Results

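The genes described here are MYC and 45 nucleolar genes of ribosome biogenesis, 46 in all. They were chosen by name as a known pathway, with earlier results of these data known. Of these, 45 had a probe set under their own gene symbol, out of 29402 genes measured, and no probe set carried the symbol PPAN. All 45 passed the filter on low values, which left 20582 genes to test. The samples were cultures of SAS, an established line from a human tongue squamous carcinoma, read on 3 Affymetrix Human Gene 2.0 ST arrays. The first group holds 2 arrays of SAS cells transfected with siRNA against ARID1A with the reagent Lipofectamine RNAiMAX, called array 108 and array 109 after the numbers in their titles. The second group is 1 array of SAS cells, titled SAS NC, whose treatment is given as mock. Both groups are of the same line and carry no other labelled allele or agent, and the sources used here do not give the content of the mock treatment, the siRNA sequences, the time of RNA extraction and the number of cultures behind the siRNA arrays. The labels do not say whether 108 and 109 are different siRNAs or repeats of one. In every difference between these arrays, and in every SD with n = 2, an effect of different siRNAs and spread between repeats, which may be technical, cannot be told apart. The mock array has no replicate.

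MYC is a transcription factor that, paired with MAX, binds DNA at E-boxes and is known in many tissues for raising the transcription of ribosome biogenesis genes. Ribosomes are made in the nucleolus, where RNA polymerase I transcribes the ribosomal RNA precursor. Small nucleolar ribonucleoproteins (snoRNPs) modify that precursor, and large assemblies cut and fold it into the small and the large ribosomal subunit. Cancer cells, those of squamous tumours among them, often run this pathway at a high rate.

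The knockdown and the cell type were checked first. ARID1A, a DNA-binding component of the BAF chromatin remodeller and the gene targeted, measured log2 5.72 on array 108, 5.32 on array 109 and 6.79 on the mock array. It was lowest on the siRNA arrays, but with 1 residual degree of freedom it did not pass limma over all genes (adjusted p = 1). Of 10 squamous epithelial markers, 9, 6 and 8 lay above the mean of the negative control probes on array 108, array 109 and the mock array. That mean differed between the arrays, at log2 4.36, 4.65 and 4.43 in the same order. SFN, EPCAM and CDH1 were among those above it on each array, while PKP1 was below it on each. Of 6 leukocyte, 6 fibroblast and 3 endothelial markers, 2, 1 and at most 1 lay above it on any array.

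Because MYC pairs with MAX at the sequence CACGTG, the promoters of the members were searched for that E-box, and those of the members that differed most between the siRNA arrays are shown here. The RefSeq table (GRCh38.p14) of windows from 250 bases before to 50 bases after each transcript start held 36 of the 45 members. CACGTG reads the same on both strands, and it occurred in 17 of these 36 (47.2%). It occurred in 11.4% of the 14650 tested genes with a window, in 13.4% of those within the members' range of levels and in 10.9% of the protein-coding genes in the table. The looser motif CANNTG, which includes CACGTG, occurred in 28 of the 36 members and in 69.9% of the tested genes. A match describes the sequence and is not a measured binding site. Among the members eligible to be printed, the first 4 sequences belong to those with CACGTG that differed most between the siRNA arrays, and the last 2 to those without it that differed most. Each runs 5′ to 3′ on the gene's strand from 120 bases before to 30 bases after the start, with the E-box in capitals.
DDX21, plus strand, chr10:68956527-68956676: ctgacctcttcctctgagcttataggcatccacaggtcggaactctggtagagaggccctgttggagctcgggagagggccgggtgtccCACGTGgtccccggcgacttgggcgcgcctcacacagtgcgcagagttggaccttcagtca
UTP20, plus strand, chr12:101279985-101280134: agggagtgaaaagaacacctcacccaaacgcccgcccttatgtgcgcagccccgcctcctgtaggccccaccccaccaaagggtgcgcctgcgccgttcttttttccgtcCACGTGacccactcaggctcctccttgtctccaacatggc
LYAR, minus strand, chr4:4289992-4290141: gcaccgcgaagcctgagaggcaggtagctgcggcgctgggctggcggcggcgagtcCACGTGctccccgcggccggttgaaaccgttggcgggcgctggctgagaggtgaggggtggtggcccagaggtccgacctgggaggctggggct
PNO1, plus strand, chr2:68157768-68157917: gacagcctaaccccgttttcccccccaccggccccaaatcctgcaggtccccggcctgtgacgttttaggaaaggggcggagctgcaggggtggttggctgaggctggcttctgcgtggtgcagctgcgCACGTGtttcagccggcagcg
WDR36, plus strand, chr5:111092228-111092377: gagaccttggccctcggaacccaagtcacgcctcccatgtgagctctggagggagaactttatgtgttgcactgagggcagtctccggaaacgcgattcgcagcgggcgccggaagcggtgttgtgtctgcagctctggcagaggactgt
DDX10, plus strand, chr11:108664949-108665098: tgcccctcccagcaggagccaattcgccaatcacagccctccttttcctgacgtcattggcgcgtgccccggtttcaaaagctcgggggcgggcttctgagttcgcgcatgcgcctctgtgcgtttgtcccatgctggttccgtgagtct

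In the 17 members the E-box occurred 18 times, 16 of them within 50 bases of the start and 13 after it. In the sequences shown it begins 31 bases before the start in DDX21, 10 before it in UTP20, 64 before it in LYAR and at base 10 after it in PNO1. UTP18 was the member with 2 matches.

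**Figure D1:**
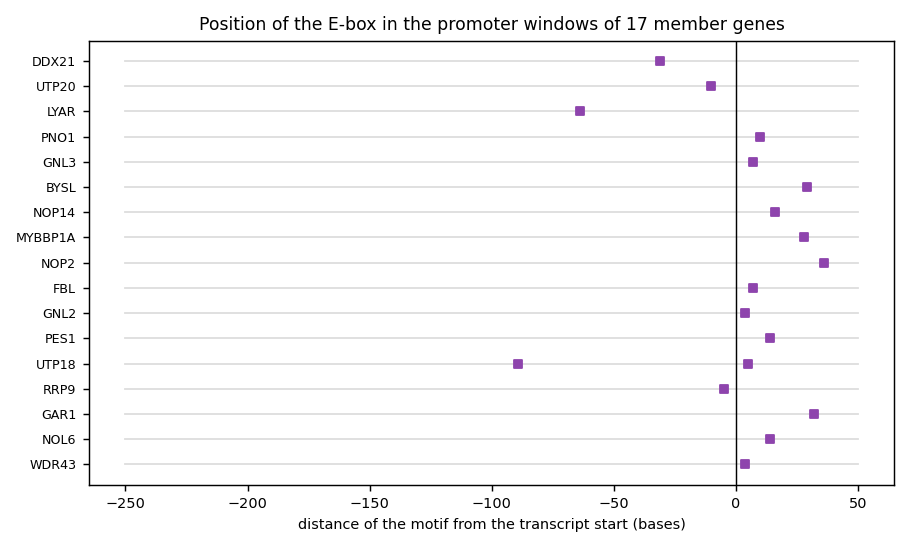
Distance of each CACGTG E-box from the transcript start (bases, negative before the start) in the promoter windows of the 17 members that hold it, ordered from bottom to top by the log2 difference between the siRNA arrays. Squares mark the first base of the motif, and 16 of the 18 lie within 50 bases of the start.

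The members did not differ from the mock array in one direction on both siRNA arrays. On array 108 most were lower than on the mock array, on array 109 most were higher, and the siRNA arrays differed from each other more than either did from the mock array. The median log2 difference over the 45 members was -0.16 on array 108 and 0.13 on array 109, against a median of 0 over all genes tested in each case. With the array's intron control probe sets set equal they were -0.07 and 0.01, and with its exon control probe sets set equal -0.05 and 0.09. These comparisons share the mock array, so they are given side by side. MYC itself was higher on both siRNA arrays than on the mock array.

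On array 108, 15 members were at least 1.2-fold lower than on the mock array and 1, MYC, was at least 1.2-fold higher. Over all genes tested these shares were 7.11% lower and 4.92% higher. Among the 7019 genes with a mean level between the 10th and 90th percentile of the members (log2 6.01 to 9.54), they were 12.5% and 5.77%. On array 109, 12 members were at least 1.2-fold higher, against 5.75% of all genes and 8.65% of those of the members' levels. Lower by that much were 2, RRP9 and WDR43, against 7.2% and 12.2%. At 1.5-fold, array 108 had 2 members lower, against 1.49% of all genes, and 0 higher, against 0.768%. At that size array 109 had 1 member higher, MYC, against 1.15%, and 0 lower, against 1.73%. Each of these compares 1 array with 1 array and has no test.

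**Figure D2:**
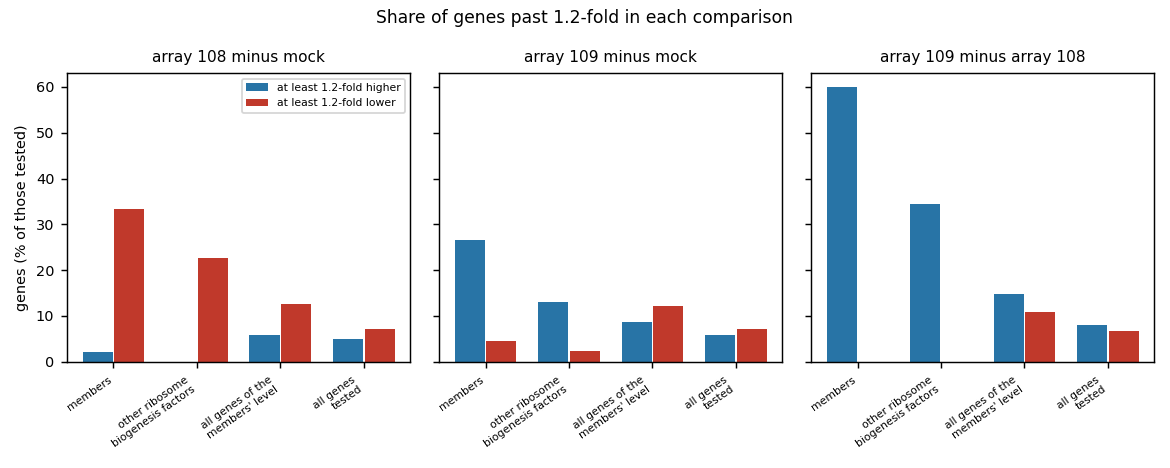
Share of genes (% of those tested) at least 1.2-fold higher (blue) or lower (red) in each comparison of arrays, for the 45 members, 84 other ribosome biogenesis factors, 7019 genes of the members' levels and all 20582 genes. Between the siRNA arrays 60% of the members were higher on array 109 and 0 lower, against 8.08% and 6.83% of all genes.

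Between the siRNA arrays, 42 of 45 members were higher on array 109 than on array 108, 2 (NHP2 and WDR43) were lower, and 1 (NOL6) was equal. Of all genes, 25% were higher by any amount and 26.9% lower, since 48.2% had equal values on the siRNA arrays. Of the 7019 genes of the members' levels, 2752 were higher by any amount, 2451 lower and 1816 equal. At 1.2-fold, 27 members (60%) were higher on array 109 and 0 lower, against 8.08% higher and 6.83% lower among all genes. In genes of the members' levels these shares were 14.8% and 10.8%. At 1.5-fold, 10 members were higher on array 109 as measured, against 2.19% of all genes, and 0 lower, against 1.51%. One of these, NPM1, was dimmer on array 108 than the mean negative control. With that mean in place of its array 108 value, 9 members reached 1.5-fold. The median difference of the members was 0.32 on the log2 scale.

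Control probe sets of the array moved with this difference. The mean of 3575 intron control probe sets was 0.22 higher on array 109 than on array 108, and that of 1626 exon control probe sets 0.16 higher. The 23 antigenomic background probe sets differed by -0.03. The mean of the negative controls, however, was log2 4.36 on array 108, 4.65 on array 109 and 4.43 on the mock array. Setting the intron controls equal, an alternative added after seeing the data, shifted the median of all genes by -0.22 and left the members at 0.10, with 30 of 45 higher on array 109 and 14 at least 1.2-fold higher. The share of all genes past 1.2-fold under that scaling is not given here. It shifts every gene by one amount per array, so the members' distance from all genes could not change. Under quantile, median and cyclic loess scaling their median stayed between 0.28 and 0.31, with 40, 42 and 42 members higher on array 109. The squamous markers differed the other way, with 6 of 10 at least 1.2-fold lower on array 109 than on array 108 and 0 higher. As deposited, 6.83% of all genes were lower by that much and 8.08% higher. The summed log2 level of the squamous markers was 72.6 on array 108, 68.6 on array 109 and 69.8 on the mock array. The part of these shifts in the members' values was not tested. In RNA from whole cultures, fewer cells expressing a gene and less RNA per cell cannot be told apart.

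**Figure D3:**
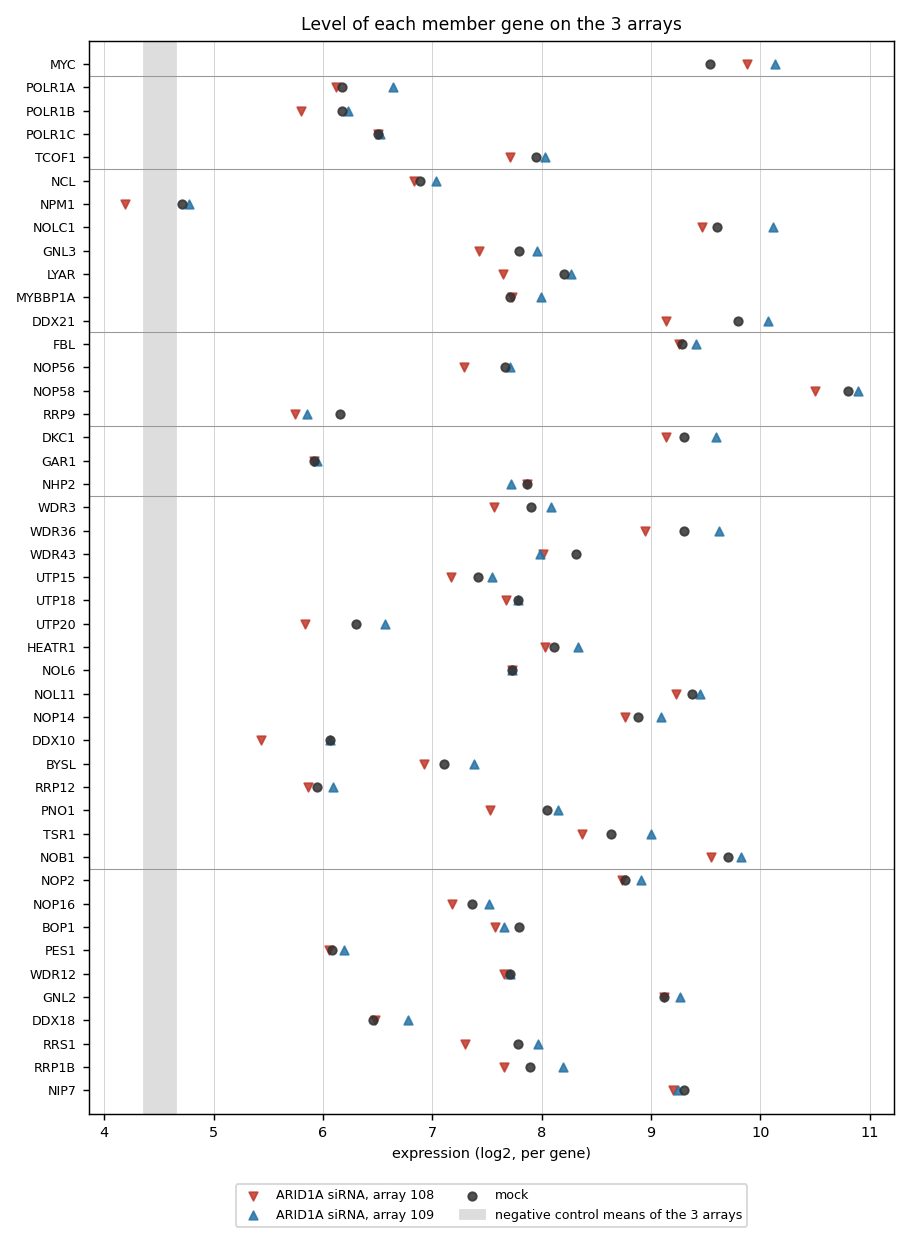
Expression (log2) of the 45 members on array 108, array 109 and the mock array, grouped by role from MYC at the top through RNA polymerase I, nucleolar scaffold, box C/D, box H/ACA and small subunit genes to large subunit genes at the bottom. The grey band spans the negative control means of the 3 arrays, and only NPM1 lies beside it.

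The mock value lay between the siRNA arrays, with array 109 on top, in 30 of 45 members, against 7.31% of all genes tested, and in 0 with array 108 on top, against 5.44%. Neither order can occur with equal siRNA values, which 48.2% of all genes had but 25.9% of genes of the members' levels. The share of each order in genes of those levels is not given here. The groups did not overlap in 8 members. The mock array was below both siRNA arrays in 3 of them (MYC, MYBBP1A and DDX18), against 13.1% of all genes, and above both in 5 (RRP9, WDR43, BOP1, WDR12 and NIP7), against 16.2%. Of the 7019 genes of the members' levels, it was below both in 966 and above both in 1864. DDX18 is among the 3 only through a dim probe set below the negative control mean on every array, and with the highest probe set of each gene the count was 2. WDR12 differed from the mock array by only -0.001 on array 109, and MYBBP1A by only 0.017 on array 108. In limma over all 20582 genes, which tests the mean of the siRNA arrays against the mock array, 0 members were called and 0% of all genes. At an unadjusted p under 0.05, limma counted 0 members, and 228 genes higher and 225 lower among all genes. The median difference of the members in that fit was -0.02.

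**Figure D4:**
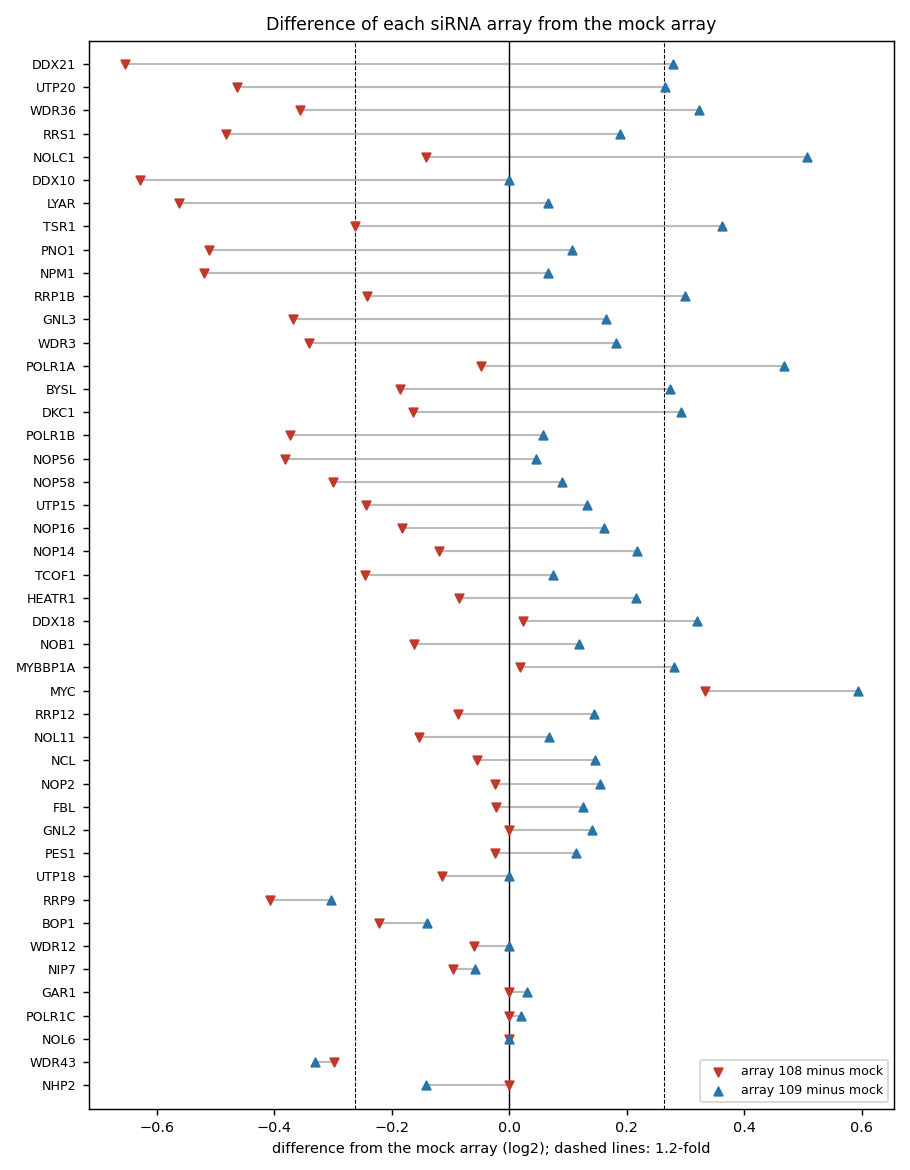
Log2 difference of array 108 (red) and array 109 (blue) from the mock array for each of the 45 members, ordered by array 109 minus array 108. Dashed lines mark 1.2-fold. DDX21 at the top spans -0.65 to 0.28, and the mock value at 0 lies between the siRNA arrays in 30 members.

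MYC was at log2 9.88 on array 108, 10.14 on array 109 and 9.54 on the mock array. Both siRNA arrays were above the mock array and the groups did not overlap. The differences were 0.33 and 0.59, with a mean of 0.46 ± 0.18 (SD, n = 2). In limma the 95% interval of this mean ran from -0.01 to 0.94, and MYC did not pass (adjusted p = 1).

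RNA polymerase I genes were at least 1.2-fold higher on array 109 than on array 108 in 3 of 4 members. The same held for 8.08% of all genes and 14.8% of those of the members' levels. This and the role groups below split the same 45 members on the same arrays. POLR1A, the largest subunit of RNA polymerase I, was at 6.12 on array 108, 6.64 on array 109 and 6.17 on the mock array, so that only array 109 stood apart. Its probe sets were 0.45 and 0.58 higher on array 109 than on array 108. POLR1B, the other subunit of the catalytic core, was at 5.80, 6.23 and 6.17, with array 108 alone low. POLR1C, which RNA polymerase III also uses, was at 6.50, 6.52 and 6.50 and hardly differed. TCOF1, the nucleolar protein treacle that aids transcription of ribosomal DNA, was at 7.71, 8.03 and 7.95, again low on array 108.

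The nucleolar scaffold and multifunctional proteins stood furthest apart of the 7 role groups by their median, which was 0.59 between the siRNA arrays as measured. It was 0.53 with NPM1 set to the negative control mean on array 108. Past 1.2-fold were 6 of 7 members, against 8.08% of all genes and 14.8% of genes of the members' levels. DDX21, an RNA helicase of the nucleolus, was at 9.14 on array 108, 10.07 on array 109 and 9.79 on the mock array. Array 108 was lowest by 0.65 against the mock array and array 109 highest by 0.28, which put DDX21 1.91-fold higher on array 109 than on array 108. Its mean difference from the mock array was -0.19 ± 0.66 (SD, n = 2), with limma adjusted p = 1.
NOLC1, a chaperone of snoRNPs, was at 9.47, 10.11 and 9.61, where array 109 stood above the other arrays. LYAR, a zinc finger protein of the nucleolus, was at 7.64, 8.27 and 8.21, where array 108 stood below them, and GNL3, the GTPase nucleostemin, at 7.43, 7.96 and 7.79. NCL, nucleolin, was at 6.84, 7.04 and 6.89, a smaller spread in the same order. MYBBP1A, a nucleolar partner of MYB proteins, was at 7.73, 7.99 and 7.71, with array 109 alone high.
NPM1, nucleophosmin, was at 4.19 on array 108, 4.78 on array 109 and 4.71 on the mock array. On array 108 it lay below the negative control mean of 4.36, and those of array 109 and the mock array were 4.65 and 4.43. With 4.36 in place of its array 108 value, NPM1 was 1.34-fold lower there than on array 109. On the same terms it was 1.28-fold lower than on the mock array. As the array 109 and mock values were not adjusted for their own controls, these are not minimum differences. All NPM1 values lay near the negative controls, and NPM1 has processed copies elsewhere in the genome, so its values are uncertain.

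The box C/D snoRNPs guide methylation of ribosomal RNA. NOP56, a core protein of these particles, was at 7.29 on array 108, 7.71 on array 109 and 7.67 on the mock array. NOP58, its partner, was at 10.50, 10.89 and 10.80, and in both genes array 108 alone was low. FBL, the methyltransferase fibrillarin, was at 9.26, 9.41 and 9.28, with a difference of 0.15 between the siRNA arrays. RRP9, a protein of the snoRNP that takes part in the first cuts of the precursor, was at 5.75, 5.85 and 6.15. It was lower on both siRNA arrays, by 0.41 and 0.30, a mean of -0.36 ± 0.07 (SD, n = 2) with a limma interval from -0.79 to 0.08 (adjusted p = 1).

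The box H/ACA snoRNPs guide pseudouridylation. DKC1, the pseudouridine synthase dyskerin, was at 9.13 on array 108, 9.59 on array 109 and 9.30 on the mock array, in the order seen in most members. GAR1, another core protein, was at 5.92, 5.95 and 5.92, and NHP2 at 7.86, 7.72 and 7.86. These 2 partners of dyskerin thus differed by 0.03 and -0.14 between the siRNA arrays, against 0.46 for DKC1.

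The small subunit processome and later small subunit factors held 16 members, of which 11 were at least 1.2-fold higher on array 109 than on array 108 and 12 had the mock value between. Of all genes, 8.08% were higher by that much and 7.31% had the mock value between with array 109 on top. Of genes of the members' levels, 14.8% were higher by that much. UTP20, a large scaffold protein, was at 5.84 on array 108, 6.57 on array 109 and 6.30 on the mock array. There the mock array lay nearer to array 109. WDR36 was at 8.94, 9.62 and 9.30, with the mock array near the middle. DDX10, an RNA helicase, was at 5.43, 6.06 and 6.06, with array 108 alone low by 0.63.
PNO1, an RNA-binding factor of small subunit maturation, was at 7.53, 8.15 and 8.04, low on array 108. TSR1, a GTPase-like factor of the same late stage, was at 8.37, 9.0 and 8.63, and NOB1, the endonuclease that finishes the small subunit RNA, at 9.55, 9.83 and 9.71.
WDR43 was the exception, at 8.01, 7.98 and 8.31, lower on both siRNA arrays by 0.30 and 0.33, a mean of -0.32 ± 0.02 (SD, n = 2) with limma adjusted p = 1. NOL6 had the same value, 7.73, on all 3 arrays. For the remaining 8 members (WDR3, UTP15, UTP18, HEATR1, NOL11, NOP14, BYSL and RRP12) the difference between the siRNA arrays ran from 0.11 in UTP18 to 0.52 in WDR3. RRP12 had a dimmer probe set with equal values on the siRNA arrays and a brighter one that was 0.46 higher on array 109.

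Large subunit assembly factors held 10 measured members, of which 4 were at least 1.2-fold higher on array 109 than on array 108 and 5 had the mock value between. The shares of all genes were 8.08% and 7.31%, and 14.8% of genes of the members' levels were higher by that much. RRS1, needed for assembly of the large subunit, was at 7.30 on array 108, 7.97 on array 109 and 7.78 on the mock array. RRP1B was at 7.65, 8.19 and 7.90 and NOP16 at 7.18, 7.52 and 7.36. In all of these array 108 was lowest and array 109 highest.
DDX18, an RNA helicase, was at 6.48, 6.78 and 6.46. Its brighter probe set was at 8.61, 9.14 and 8.75, with the mock array between, and its dimmer one at 4.35, 4.41 and 4.16, below the negative control mean on each array. The partners BOP1, PES1 and WDR12, which act as one complex, differed little between the siRNA arrays, by 0.08, 0.14 and 0.06. BOP1 was below the mock array by 0.22 and 0.14, a mean of -0.18 ± 0.06 (SD, n = 2) with limma adjusted p = 1. For the other 3 (NOP2, a methyltransferase of ribosomal RNA, GNL2 and NIP7) the difference between the siRNA arrays ran from 0.04 to 0.18.

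Members with and without the E-box in their promoter window had overlapping ranges. Between the siRNA arrays the median difference was 0.18 in the 17 with CACGTG (range -0.03 to 0.93, 8 past 1.2-fold) and 0.38 in the 19 without it (range -0.14 to 0.68, 13 past 1.2-fold). The 9 members without a window in the table had a median of 0.32. No test was made of these groups, whose genes share the same arrays.

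In the authors' deposited table, which flags ratios to the mock array of at least 2-fold above the negative controls, 0 of the 49 probe sets of the members were flagged. The share of all probe sets flagged is not given here, so this count has no background beside it. The authors' deposited ratios ran from 0.636 to 1.26 on array 108 and from 0.795 to 1.51 on array 109.

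Other genes of ribosome production showed a difference between the siRNA arrays to an unequal extent. Of 84 other ribosome biogenesis factors tested, 29 were at least 1.2-fold higher on array 109 than on array 108 and 0 lower, with a median of 0.14. This is 34.5% of the list, against 8.08% of all genes and 14.8% of those of the members' levels. Against the mock array, 19 were lower and 0 higher on array 108, and 11 higher and 2 lower on array 109. The shares of all genes were 7.11% lower and 4.92% higher on array 108, and 5.75% higher and 7.2% lower on array 109. The median of this list changed sign, to -0.07 and -0.02, when the intron or exon controls were set equal, which shifts all genes down by 0.22 and 0.16. ESF1, a nucleolar factor, was at 6.86 on array 108, 8.14 on array 109 and 7.69 on the mock array. NOC3L was at 6.16, 7.23 and 6.71, LTV1, a small subunit factor, at 7.36, 8.33 and 8.0, and DIMT1, which methylates small subunit RNA, at 6.97, 7.75 and 7.81. NLE1 and NVL, factors of the large subunit, were lower on both siRNA arrays, by 0.58 and 0.44 and by 0.43 and 0.40. In limma 0 of the 84 passed.

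The hosts of small nucleolar RNAs, long RNAs whose introns hold snoRNAs, were higher on array 109 than on array 108 in 13 of 13 tested, by a median of 0.46, and 10 (76.9%) were past 1.2-fold. Of all genes, 25% were higher by any amount and 8.08% by 1.2-fold, and 14.8% of genes of the members' levels passed 1.2-fold. The hosts' median against the mock array was -0.24 on array 108 and 0.37 on array 109. It was -0.14 and 0.25 with the intron controls set equal, and -0.12 and 0.32 with the exon controls. SNHG1 was at 5.89 on array 108, 7.08 on array 109 and 6.47 on the mock array. SNHG8 was at 7.26, 8.43 and 7.76, EPB41L4A-AS1 at 5.94, 7.01 and 6.21, and SNHG32 at 7.99, 8.79 and 8.38. In each of these the mock array lay between.

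Of 37 other RNA polymerase I and III genes, 7 (18.9%) were at least 1.2-fold higher on array 109 than on array 108 and 3 (8.11%) lower, and the median was 0. The same held for 8.08% and 6.83% of all genes, and for 14.8% and 10.8% of genes of the members' levels. POLR3G, a subunit of RNA polymerase III, was at 6.31 on array 108, 7.87 on array 109 and 7.43 on the mock array. TAF1D, a part of the RNA polymerase I selectivity factor, was at 7.57, 8.67 and 8.17. The largest mean difference from the mock array was that of POLR2L, a small subunit shared by the RNA polymerases, at 8.39, 8.10 and 8.71. Of 17 genes of the RNA exosome and of rRNA trimming, 7 (41.2%) were higher by that much and 0 lower, with a median of 0.06, which turned to -0.16 and -0.10 with the intron or exon controls set equal. EXOSC3, a subunit of the exosome cap, was at 5.90, 7.23 and 7.30, with array 108 alone low. DIS3L, a ribonuclease of the cytoplasmic exosome, was at 7.44, 7.28 and 7.93, lower on both siRNA arrays.
Of 78 ribosomal protein genes, 17 (21.8%) were at least 1.2-fold higher on array 109 than on array 108 and 3 (3.85%) lower, and the median was 0. The shares of all genes were again 8.08% and 6.83%, and those of genes of the members' levels 14.8% and 10.8%. RPL37 was at 6.84, 7.74 and 7.21 and RPS24 at 6.21, 6.85 and 6.45. RPL12, with the largest mean difference from the mock array, was at 5.55, 6.14 and 5.46. Ribosomal protein genes have many near-identical processed copies, so single values are uncertain.

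MYC network partners had a median of 0 in each comparison. Of 19 tested, 2 were at least 1.2-fold higher and 2 lower on array 109 than on array 108. This is 10.5% each way, against 8.08% higher and 6.83% lower among all genes. MXD1, which competes with MYC for MAX, was at 5.54 on array 108, 5.73 on array 109 and 5.23 on the mock array. MLX, a related partner in the network, was at 9.45, 9.34 and 9.70, and AURKA, a mitotic kinase that stabilises MYC proteins, at 7.51, 6.71 and 7.74. MAX was at 4.40 on all 3 arrays, near the negative control means.
Of 28 MYC targets outside the nucleolus, 4 (14.3%) were at least 1.2-fold higher on array 109 than on array 108 and 0 lower, a share below the 14.8% of genes of the members' levels. The median of the list was 0.11, which turned to -0.10 and -0.05 with the intron or exon controls set equal. These 4 were SLC16A1, a lactate transporter, by 1.03, CCND2, a cyclin, by 0.82, CAD, an enzyme of pyrimidine synthesis, by 0.74, and CDC25A, a cell-cycle phosphatase, by 0.45. AIMP2, a scaffold of the tRNA synthetase complex, had the largest mean difference from the mock array, at 8.63, 8.86 and 9.02. Of 13 nucleolar stress and p53 response genes, 1 was higher on array 109 than on array 108 by 1.2-fold and 1 lower. This is 7.69% each way, against 8.08% higher and 6.83% lower among all genes. ZMAT3, a zinc finger protein and p53 target, had the largest mean difference from the mock array. It was at 5.83, 6.03 and 6.64, lower on both siRNA arrays by 0.82 and 0.62. CDKN1A, the cell-cycle inhibitor p21, was at 6.74, 6.50 and 6.23, and MDM2, the ubiquitin ligase of p53, at 7.70, 7.70 and 7.94. In limma 0 genes of these lists passed, ZMAT3 included (adjusted p = 1).

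**Figure D5:**
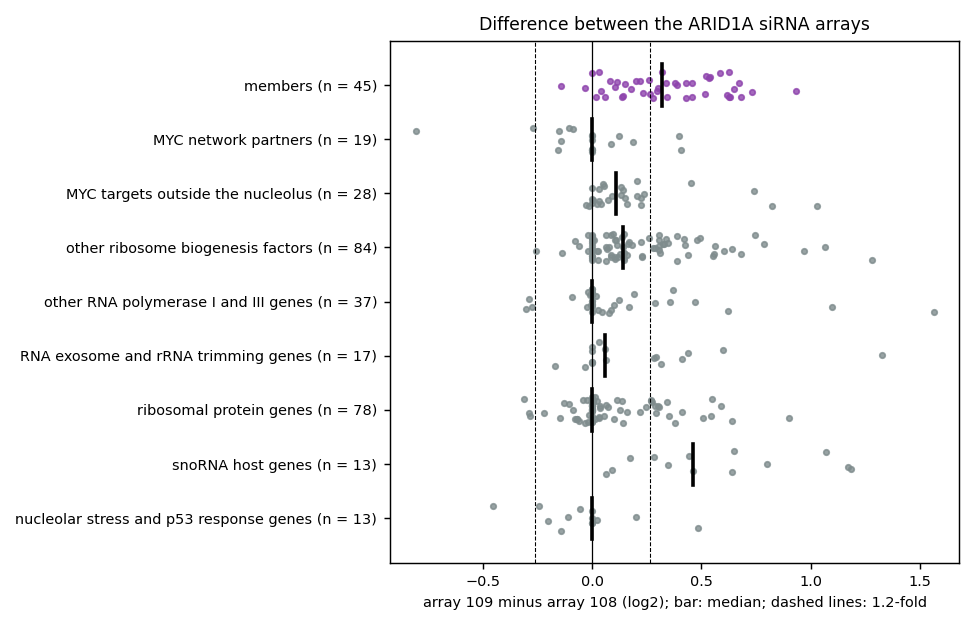
Log2 difference of array 109 from array 108 for each gene of the members and of 8 related lists, with the number of genes tested. Bars mark medians, 0.32 for the members and 0.46 for snoRNA hosts, and dashed lines mark 1.2-fold.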

How the data were processed

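RNA of 3 arrays was compared, 2 of ARID1A siRNA and 1 of mock SAS cells. The authors deposited log2 expression per probe set, made with Affymetrix Expression Console per the submitters' processing notes. Per the file headers, the deposited per-sample tables give normalized linear intensity, its ratio to the mock array and the log2 of that ratio. The sources used here do not state the probe summary, the background correction or the genome build.

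Symbols were updated through Entrez identifiers, and probe sets of a gene were averaged. Genes under the 30th percentile of mean log2 level (3.52) were left out. The mean of the siRNA arrays was tested against the mock array with limma 3.58.1 in R 4.3.3 (two-sided, trend, Benjamini-Hochberg over 20582 genes). The fit has 1 residual degree of freedom, and gives the single mock array the spread of the siRNA arrays. The prior (4.90 degrees of freedom) came from the 10664 genes with unequal siRNA values and was applied to all genes, because equal values have a spread of 0. The fit was tested on simulated data, where it called more unchanged genes than its threshold allows. The number of arrays limits the precision.

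The members, lists and tests were chosen with earlier results of these data known. The text names all members, ARID1A, markers, and up to 4 genes per list each by mean difference and by difference between the siRNA arrays. MAX and genes named as exceptions to a count were chosen after their values were seen. Promoters on human chromosome 8 were not eligible to be printed. The 2 control scalings were added after seeing the data.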

Additional observations from a re-analysis of the deposited data

How the results depend on the processing

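No paired analysis was possible because the groups share 1 replicate number, given in order only. Limma called 0 members under every setting run, the ordinary prior and the fit on untied genes included. Over all genes it called 0 as reported and 0 on untied genes alone, but 1919 with the ordinary prior (0.279 degrees of freedom), which the equal siRNA values pull towards a spread of 0. The members' median difference between the siRNA arrays lay between 0.10 and 0.34 over 9 settings. Without one siRNA array, the members' median difference from the mock array (-0.02) was -0.16 or 0.13, values with no test.

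The members below both siRNA arrays on the mock array (3 as reported) numbered 12 with quantile, 7 with cyclic loess, 10 with intron control and 11 with exon control scaling. Those above both (5) numbered 10 with median and 13 with intron control scaling. As deposited, 7819 of the 20582 genes tested had equal values on all 3 arrays, and scaling can separate such values. Shares of all genes are not given for the counts under other scalings, so those counts have no background beside them. With intron controls set equal, the members' median between the siRNA arrays was 0.10, with 14 at least 1.2-fold higher and 1 lower, and 3 were higher on array 109 than on the mock array. With exon controls these were 9 lower on array 108, 6 higher on array 109 and 1 lower between the siRNA arrays. At 1.5-fold, 0 members were higher and 2 lower on array 108, and 1 higher and 0 lower on array 109. Between the siRNA arrays 10 were higher as measured, and 9 with NPM1 set to the negative control mean on array 108. Within the members' range of levels, 12.5% of genes were lower on array 108, 8.65% higher and 12.2% lower on array 109, and 14.8% higher and 10.8% lower between the siRNA arrays. CANNTG was in 28 members.

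Control scaling shifts every gene by one amount per array, so it moves lists whose median is near 0. With intron controls, the medians on array 108, array 109 and between them were 0.098, -0.118 and -0.216 for MYC partners and p53 response genes, 0.027, -0.118 and -0.105 for MYC targets, 0.0084, -0.0999 and -0.0724 for other biogenesis factors, 0.082, -0.118 and -0.216 for other polymerase genes, and 0.0852, -0.118 and -0.216 for ribosomal protein genes. For exosome genes the last was -0.157. With exon controls, the medians on array 108 and between the siRNA arrays were 0.118 and -0.164 for MYC partners and p53 response genes, 0.047 and -0.0526 for MYC targets, 0.0285 and -0.0203 for other biogenesis factors, 0.102 and -0.164 for other polymerase genes, and 0.105 and -0.164 for ribosomal protein genes. For exosome genes the last was -0.105. With quantile scaling p53 response genes were at 0.0597 on array 108 and -0.0516 between the siRNA arrays. The snoRNA hosts kept their direction in all 9 settings, at 0.24 to 0.46 between the siRNA arrays. Values near the negative controls, such as those of NPM1, limit what can be resolved.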

Other observations

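The gene annotation in the deposited tables gave a wider view, chosen after the values were seen. Of the 45 members, 42 carry the term nucleolus, against 3.88% of all genes tested, and 24 a term of rRNA processing, against 0.573%. The members were chosen by name as nucleolar genes, so these shares follow from that choice and are not a result. Outside the members and every related list, 37 tested genes carry an rRNA processing term, and 8 of these (21.6%) were at least 1.2-fold higher on array 109 than on array 108 and 0 lower. Of 611 other genes with the term nucleolus, 74 (12.1%) were higher by that much and 39 (6.38%) lower, against 8.08% and 6.83% of all genes and 14.8% and 10.8% of genes of the members' levels.

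PPAN, a large subunit factor, had no probe set of its own. The probe set of the PPAN-P2RY11 readthrough transcript was at log2 5.66 on all 3 arrays and was not counted as a member.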
